A study of Saccharomyces cerevisiae with 4 samples.

Results

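The mRNAs of 10 ubiquitin ligase genes were followed from total lysate into purified nuclear mRNPs of Saccharomyces cerevisiae. The genes were chosen by their function and matched by systematic name, and all 10 were found among the 6692 open reading frames of the count table. They are the HECT ligase genes RSP5 (YER125W), TOM1 (YDR457W), UFD4 (YKL010C), HUL4 (YJR036C) and HUL5 (YGL141W), and the SCF genes CDC53 (YDL132W), SKP1 (YDR328C), CDC4 (YFL009W), GRR1 (YJR090C) and MET30 (YIL046W). All of them passed the filter on low counts. The 2 lysate libraries held RNA of whole lysate taken before purification, and the 2 eluate libraries held RNA of particles released with biotin at its end. Both fractions came from BY4741 cells grown in YPD. The RNA helicase gene SUB2 was tagged as sub2-FLAG-3C-ProtA::kanMX4 and HPR1, a THO complex gene, as hpr1-TS::hphNT1, and the lysate carried both tags as the eluate did. An untagged strain or a mock purification was not analysed here.

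Ubiquitin ligases choose the proteins that are marked with ubiquitin. A HECT ligase takes ubiquitin onto a cysteine of its own and then passes it to the substrate. An SCF ligase is a modular complex. The cullin Cdc53 is its scaffold, a RING protein on the cullin calls in the ubiquitin-conjugating enzyme, and Skp1 links the cullin to an interchangeable F-box protein such as Cdc4, Grr1 or Met30, which binds the substrate. In yeast these ligases are known for the turnover of cell cycle regulators, nutrient transporters and transcription factors, and Tom1 is also known to ubiquitylate the mRNP protein Yra1.

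Total counts ranged from 22454265 to 29903666 in the eluates and from 11448755 to 14793216 in the lysates. No library had a count for LEU2, MET17 or URA3, all deleted in BY4741, while HIS3, which that strain carries with an internal deletion, had 344 and 480 counts in eluates 1 and 2 and 1105 and 870 in lysates 1 and 2. BY4741 is MATa, and the MATa genes STE2, BAR1, MFA1 and MFA2 had 135 to 8804 counts. Of the MATalpha genes, MF(ALPHA)1 had 1 to 6 counts and STE3 had 12 to 29. The alpha-factor gene MF(ALPHA)2 went against this, with 319 and 369 counts in the eluates (14.7 and 13.5 CPM) and 28 and 32 counts in the lysates. RNA of the mitochondrial genome, a marker of another compartment, took 1.31% and 1.33% of the lysate counts and 0.00717% and 0.00685% of the eluate counts, and its part in the values below was not tested. Normalized counts are counts scaled to a common library size (CPM), with sizes adjusted by the TMM method. In libraries of bulk RNA, fewer cells with a transcript and less of it per cell cannot be told apart, and every fold change is relative to the RNA pool of its fraction. At 2 libraries against 2, exact permutation of the labels cannot give a two-sided p below 0.33 for any gene taken alone. The adjusted p-values come from edgeR's quasi-likelihood test, which shares its estimate of spread across the 6191 genes tested.

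Of the 10 ligase genes, 9 were higher in the eluate and 1 was lower, at a threshold of 0.05 on the adjusted p. Among all genes tested, 44.2% were higher and 44.8% lower by this rule, 89% in either direction. The median log2 fold change of eluate over lysate was 1.42 in the ligase genes and -0.01 in all genes tested. All 5 HECT genes were higher, with a median of 1.41. In the SCF group, CDC53 and the F-box genes CDC4, GRR1 and MET30 were higher, SKP1 was lower, and the median was 1.55. A stricter test, which asks whether a change exceeded 2-fold (glmTreat in edgeR), was passed by 7 genes that were higher and by SKP1, which was lower. In all genes tested, 27.9% were higher and 28.9% lower by the stricter test. HUL5 and CDC4 did not pass it.

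**Figure D1:**
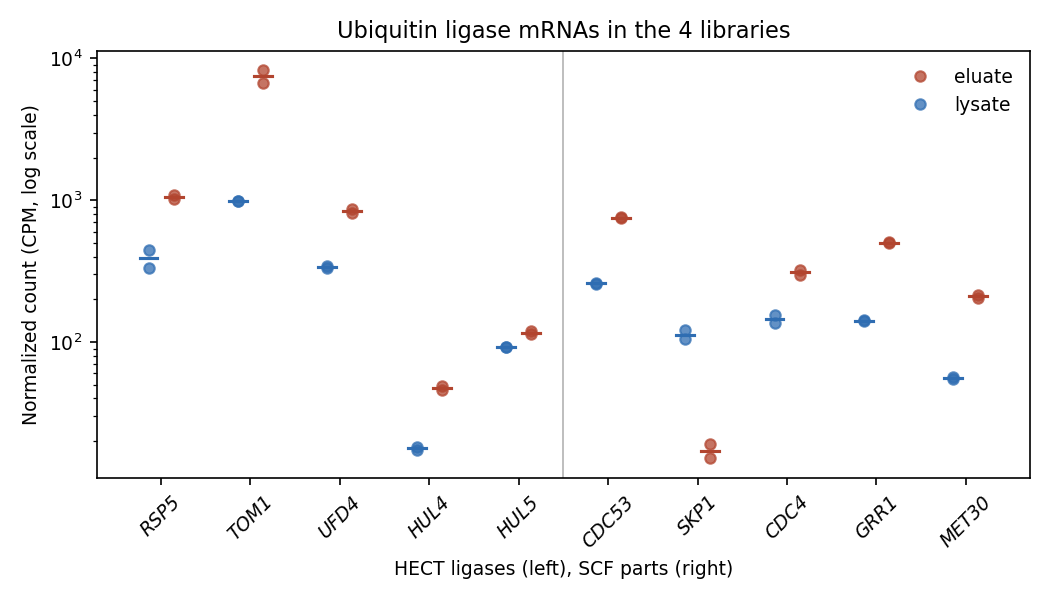
Normalized counts (CPM, log axis) of the 10 ubiquitin ligase mRNAs, with a point for each of the 2 eluate and 2 lysate libraries and a bar at their mean. Eluate points lie above lysate points for each gene but SKP1, and the fractions of no gene overlap.

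TOM1 rose most of the 10 genes. Tom1 is a very large HECT ligase, known for the disposal of excess histones and of ribosomal proteins that failed to assemble. Its gene lies on chromosome IV from 1369790 to 1379596 (sacCer3), as a single coding exon. TOM1 had 6708 and 8272 CPM in eluates 1 and 2 and 980.01 and 989.7 CPM in lysates 1 and 2. The eluates were far above the lysates, and eluate 2 was above eluate 1. The log2 fold change was 2.93 (standard error 0.163, adjusted p = 1.38e-10), a 7.61-fold rise. TOM1 ranked 2 among all reading frames by counts in each eluate, behind REA1, and 158 and 151 in the lysates. It took 0.647% and 0.758% of the eluate counts. The exact binomial interval (95%) ran from 0.643% to 0.650% in eluate 1 and from 0.755% to 0.761% in eluate 2. Its share of the lysates was 0.103% (0.102% to 0.105%) and 0.106% (0.104% to 0.108%). The intervals hold for counting error alone, because the reads carry no molecular identifiers and may include copies of 1 molecule. Reads accrue with length. Per kb of coding length, TOM1 ranked 35 and 20 in eluates 1 and 2, and 1439 and 1411 in lysates 1 and 2.

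RSP5 encodes the essential NEDD4-type HECT ligase that ubiquitylates plasma membrane proteins for endocytosis, mostly through adaptor proteins. The gene lies on chromosome V from 410189 to 412618. It had 1023 and 1087 CPM in the eluates against 334.9 and 449.3 CPM in the lysates. The fractions did not overlap, and the 2 lysates were farther apart than those of any other HECT gene. RSP5 rose by 1.43 on the log2 scale (standard error 0.134, adjusted p = 7.20e-08). The value was 1.65 without lysate 2 and 1.23 without lysate 1.

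UFD4 and HUL4 changed by about as much as RSP5. Ufd4 is a ligase of the ubiquitin fusion degradation pathway, and its gene lies on chromosome XI from 421424 to 425875. It had 867.7 and 817.8 CPM in the eluates and 332.5 and 344.6 CPM in the lysates, and rose by 1.32 on the log2 scale (standard error 0.104, adjusted p = 9.69e-09). HUL4, for a HECT ligase whose substrates are less well known, lies on chromosome X from 500713 to 503391. It was the lowest of the 10 in the lysates and, once coding length is taken into account, in the eluates too. It had 46.0 and 48.6 CPM in the eluates and 18.2 and 17.3 CPM in the lysates, which rest on 996 and 1331 eluate counts and 284 and 213 lysate counts. Its log2 fold change was 1.41 (standard error 0.110, adjusted p = 7.59e-09). HUL4 overlaps YJR037W on the opposite strand by 290 bases. YJR037W had 78 and 110 counts in eluates 1 and 2, and 24 and 13 in lysates 1 and 2. The kit keeps strand, but whether the counting used it is not stated, which leaves both counts uncertain.

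HUL5 stood apart from the other HECT genes by its small change. Hul5 is a proteasome-associated ligase that lengthens ubiquitin chains, and its gene lies on chromosome VII from 238353 to 241085. It had 113 and 120 CPM in the eluates and 92.2 and 91.5 CPM in the lysates. The fractions did not overlap, but the distance between them was short. HUL5 rose by 0.34 (standard error 0.0873, adjusted p = 0.00182), a 1.27-fold difference. With library totals alone in place of TMM, its value was 0.16 and it no longer passed (adjusted p = 0.0883). Over all alternatives its adjusted p ranged from 0.000682 to 0.0883.

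The scaffold and the linker of the SCF complex went opposite ways. CDC53, the cullin gene, lies on chromosome IV from 224304 to 226751. It had 763.6 and 747.6 CPM in the eluates and 262.5 and 255.2 CPM in the lysates, and rose by 1.55 (standard error 0.102, adjusted p = 1.05e-09). SKP1, for the linker, lies on the same chromosome from 1125434 to 1126018 and has the shortest coding sequence of the group, 585 bases. SKP1 had 15.1 and 19.2 CPM in the eluates and 121 and 104 CPM in the lysates, from 327 and 526 counts and from 1894 and 1282 counts. It was the only ligase gene with both lysates above both eluates. The log2 fold change was -2.71 (standard error 0.124, adjusted p = 1.37e-11). SKP1 overlaps YDR327W on the opposite strand by 195 bases, and its count is uncertain for the same reason as that of HUL4. YDR327W had 92 and 148 counts in eluates 1 and 2, and 642 and 461 in lysates 1 and 2, or -3.02 on the log2 scale.

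The F-box genes, which encode the substrate receptors, were all higher in the eluate. MET30, whose product acts on the sulfur regulator Met4, lies on chromosome IX from 268651 to 270573. It had 204 and 215 CPM in the eluates and 56.6 and 55.2 CPM in the lysates, and rose by 1.91 (standard error 0.0922, adjusted p = 2.59e-11). GRR1, for the F-box protein of glucose signalling and G1 cyclin turnover, lies on chromosome X from 590872 to 594327. It had 498 and 507 CPM in the eluates and 140.0 and 142.5 CPM in the lysates, and its log2 fold change was 1.83 (standard error 0.0983, adjusted p = 8.73e-11). Both genes had narrow spreads within each fraction and no overlap between them.

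CDC4, for the receptor of the CDK inhibitor Sic1, changed least among the F-box genes. It lies on chromosome VI from 116145 to 118484 and had 299 and 324 CPM in the eluates and 155 and 136 CPM in the lysates. The log2 fold change was 1.09 (standard error 0.102, adjusted p = 6.69e-08). Against the 2-fold threshold its adjusted p was 0.115 from glmTreat. It passed that test without eluate 1 (adjusted p = 0.0471), without lysate 1 (adjusted p = 0.0234) and with at least 10 CPM in 2 libraries (adjusted p = 0.0417), and over all alternatives of this test its adjusted p ranged from 0.0234 to 0.825.

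Levels of different genes were set side by side as CPM per kb of coding length. The paper reports that coverage leaned to the start of transcripts in the eluates and not in the lysates, though less so in single profiles. Its effect on levels and ranks per kb was not tested. In the eluates the order from high to low was TOM1, RSP5, CDC53, UFD4, GRR1, CDC4, MET30, HUL5, SKP1 and HUL4. The mean level fell from 763.7 ± 112.7 CPM per kb for TOM1 to 17.7 ± 0.683 CPM per kb for HUL4 (SD, n = 2 each), a 43.3-fold span. In this order the values of no gene overlapped those of the next, and the closest pair was GRR1 and CDC4, at a ratio of 1.09. In the lysates the order was SKP1, RSP5, CDC53, TOM1, UFD4, CDC4, GRR1, HUL5, MET30 and HUL4, from 193 ± 20.8 CPM per kb for SKP1 to 6.63 ± 0.234 CPM per kb for HUL4 (SD, n = 2 each), a 29.1-fold span. SKP1 and RSP5 overlapped there and were the only neighbours to do so. The levels of SKP1 and HUL4 use their full coding length, although their counts are uncertain where they overlap other reading frames. CDC53 and TOM1 were close but apart. HUL4 was thus the lowest in both fractions, while SKP1 went from place 1 in the lysates to place 9 in the eluates and TOM1 from place 4 to place 1.

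**Figure D2:**
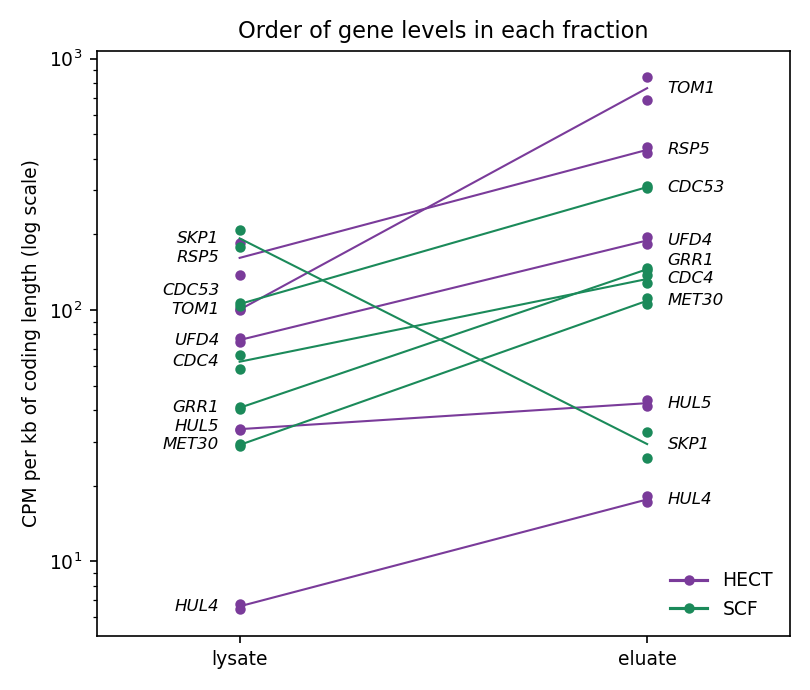
Levels of the 10 genes in CPM per kb of coding length (log axis) in lysate and eluate, with a point for each library and a line between the means of each gene. SKP1 falls from 193 to 29.3 CPM per kb and crosses the lines of the other genes but HUL4, while TOM1 rises from 100.4 to 763.7 CPM per kb.

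Ratios within a library show the same values without the scaling between libraries. Per kb, SKP1 had 1.94 and 1.71 times the level of CDC53 in lysates 1 and 2 and 0.0828 and 0.107 times its level in eluates 1 and 2. The count of SKP1 in these ratios is uncertain where the gene overlaps YDR327W. The ratio of the F-box genes to CDC53 moved much less. GRR1 had 0.378 and 0.396 times the level of CDC53 in the lysates and 0.462 and 0.481 times in the eluates. For MET30 the ratio was 0.275 and 0.276 in the lysates and 0.339 and 0.367 in the eluates. The ratio of CDC4 went the other way, from 0.619 and 0.559 in the lysates to 0.409 and 0.453 in the eluates. TOM1 had 0.725 and 0.546 times the level of RSP5 in the lysates and 1.62 and 1.89 times in the eluates.

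Across the genome, the log2 fold change rose with coding length. When the 5774 nuclear protein-coding genes tested were cut by coding length into 5 classes of about equal size, the median log2 fold change went from -1.86 in the shortest class to 1.56 in the longest. Of the ligase genes, 8 have a coding sequence over 2118 bases and fall in the longest class, where 83.3% of genes were higher in the eluate and 10.1% lower. SKP1 falls in the shortest class, where 71.1% were lower and 18.9% higher. MET30 falls in the class below the longest, where 59.5% were higher. The directions of the 10 genes were therefore those of most genes of like coding length.

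Set against the median of their own class, the ligase genes were spread to both sides, and only 3 of 10 lay above it. MET30 lay farthest above, by 1.37, and TOM1 lay 1.37 above the median of the longest class. GRR1 lay 0.27 above it, and CDC53 was at -0.02 from it. HUL5 was the farthest below, at -1.22, and SKP1 was at -0.85 from the median of the shortest class. The other 4 genes were between -0.47 and -0.13 from theirs. The longest class is wide, and with 10 classes in place of 5 TOM1 lay 1.03 above its class and MET30 1.13 above. GRR1 was then at -0.07, and RSP5, HUL4 and CDC53 were above their class median by 0.19, 0.17 and 0.30. Against a loess trend on coding length, TOM1 lay only 0.38 above, while MET30 lay 1.13 above. These distances are descriptions and were not tested. Across the 10 genes, which are not replicates, Spearman's rho of the log2 fold change with length was 0.345.

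**Figure D3:**
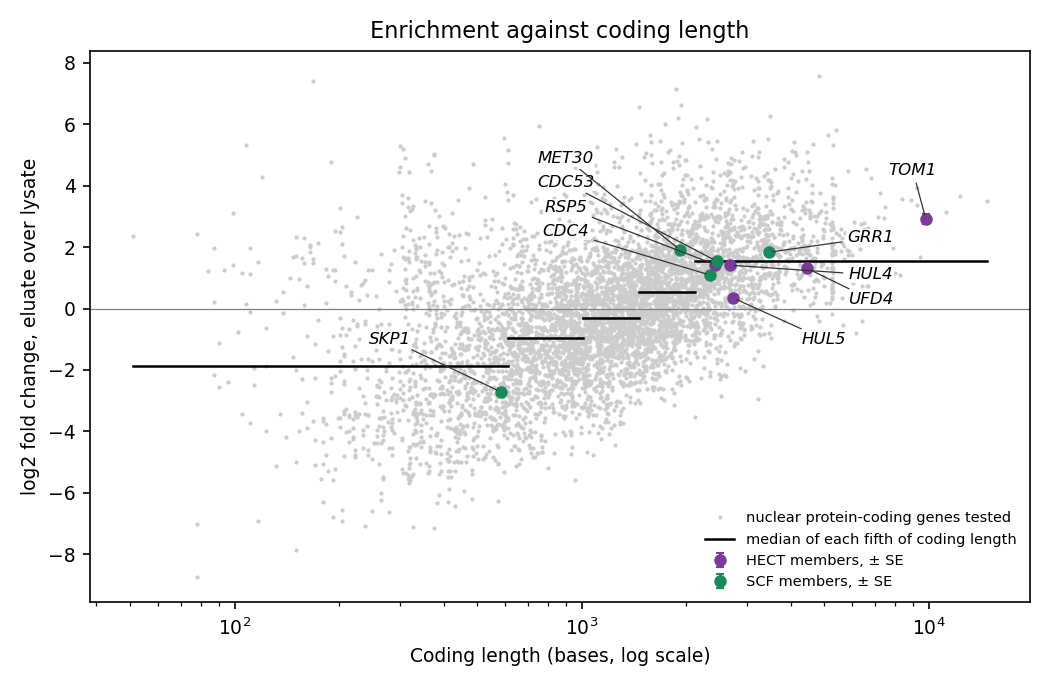
log2 fold change of eluate over lysate (linear axis) against coding length in bases (log axis) for the 10 ligase genes, with standard errors, over all nuclear protein-coding genes tested in grey and the median of each length class as a black line. SKP1 lies 0.85 below the line of the shortest class, HUL5 lies 1.22 below that of the longest, and TOM1 and MET30 lie 1.37 above theirs.

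Reading frames next to the ligase genes on the chromosome did not all move with them. Of the 20 adjacent annotated genes, 12 were higher, 7 lower and 1 did not pass. Among all genes tested, 44.2% were higher and 44.8% lower, 89% in either direction. The neighbours had a median log2 fold change of 0.59 and a median coding length of 1787 bases, against 2564 bases for the ligase genes. NHX1, which ends 403 bases before TOM1 on the same strand, fell by 2.19. CCE1 and MRT4, on the sides of UFD4, had log2 fold changes of -2.43 and -2.53. YSP2 lies 508 bases from SKP1 on the same strand, has 4317 coding bases and rose by 2.58. Both neighbours of GRR1, BIR1 and JSN1, rose, by 1.48 and 3.01. Both neighbours also rose for HUL4 (RAD26 and MLO127), CDC53 (SRF1 and LYS21) and MET30 (YIL046W-A and PIG2).

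The rest of the ubiquitin pathway was described by lists set by function. The shares to set beside each list are those of all genes tested, 44.2% higher and 44.8% lower. The genes that supply and activate ubiquitin and carry it to the ligases were mostly lower in the eluate. Of 13 such genes, 11 were lower and 1 was higher by the same threshold, with a median log2 fold change of -1.35 and a median coding length of 552 bases. UBA1, the ubiquitin-activating enzyme, had 968 and 1022 CPM in the eluates and 1575 and 1592 CPM in the lysates and fell by 0.67. UBI4, for polyubiquitin, fell by 0.79, and its repeats, which resemble other ubiquitin genes, make its count uncertain. CDC34, the ubiquitin-conjugating enzyme of the SCF complex, was the gene that rose, by 0.45 (standard error 0.0893, adjusted p = 0.000213). Per kb, CDC34 had 1.15 and 1.17 times the level of CDC53 in the lysates and 0.560 and 0.527 times in the eluates.

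Other parts and partners of the SCF complex were also mostly lower. Of 9 genes for other SCF parts and for cullin modification, 6 were lower and 1 higher, and 2 did not pass. Their median was -1.03 and their median coding length 900 bases. HRT1, the RING subunit, has 366 coding bases and had 5.87 and 6.97 CPM in the eluates and 24.2 and 24.4 CPM in the lysates. It fell by 1.91 (standard error 0.141) but overlaps YOL134C on the opposite strand. RUB1, the ubiquitin-like protein attached to Cdc53, fell by 4.53, and DCN1, which promotes that attachment, fell by 0.86. LAG2, an inhibitor of it, was the gene that rose, by 0.85. HRT1 and SKP1 were thus both lower in the eluate while CDC53 was higher. The difference of log2 fold changes from CDC53 was -3.46 for HRT1 and -4.26 for SKP1. Set against the median of their own length class, HRT1 was at -0.05, CDC53 at -0.02 and SKP1 at -0.85. Of the 9 genes of this list, 4 lay above the median of their length class.

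Other receptors and ligases were mostly on the side of the 10 genes, higher in the eluate, as 44.2% of all genes tested were. Of 18 other F-box genes, 12 were higher and 6 lower, with a median of 0.52, and 9 lay above their length-class median. They ranged from -1.88 for HRT3 to 3.10 for ELA1, an elongin A homologue, both of which were named after their values were seen. Of 10 genes for other cullins and the core of the anaphase-promoting complex, a ligase of mitosis, 7 were higher and 2 lower. Their median was 1.08, and 4 of the 10 lay above their length-class median. The number lower was 1 without lysate 1. The cullin gene RTT101 rose by 1.28 and APC2, of the cullin-like subunit, rose by 0.98. CUL3 had 54.8 and 51.4 CPM in the eluates and 57.6 and 59.9 CPM in the lysates and did not pass (adjusted p = 0.158). The range of cullin genes thus ran from -0.15 for CUL3 to 1.55 for CDC53, at coding lengths of 2235 and 2448 bases. Of 18 RING and U-box ligase genes, 15 were higher and 1 lower, with a median of 1.25, and 11 lay above their length-class median. UBR1, the ligase of the N-degron pathway, rose by 1.76 and SSM4, a ligase of the nuclear envelope and endoplasmic reticulum, by 1.90, although SSM4 overlaps YIL029W-A on the opposite strand. MOT2, a subunit of the Ccr4-Not complex named after its value was seen, rose by 2.99, close to the 2.93 of TOM1. ASI3, of the inner nuclear membrane, was the gene that was lower and fell by 1.04. Without lysate 2 the number lower was 2.

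Genes of Rsp5 adaptors and partners were mostly higher, as RSP5 was. Of 20 genes, 17 were higher and 1 lower, with a median of 1.46 and a median coding length of 2391 bases. BUL1 and BUL2, adaptors for permease endocytosis, rose by 2.58 and 1.34. ECM21, an arrestin-like adaptor named after its value was seen, was the highest, with eluate values of 887 and 987 CPM, lysate values of 41.2 and 54.2 CPM and a log2 fold change of 4.30. TRE1, for an adaptor of metal transporter sorting, was the gene that was lower and fell by 0.67, and without lysate 2 the number lower was 2. UBP2, the deubiquitinase that binds Rsp5, changed little and rose by 0.24 (adjusted p = 0.0338). Of these 20 genes, 13 lay above the median of their length class, against 5 of the 13 genes for ubiquitin and its activating and conjugating enzymes. The lists differ in coding length, and the difference between them was not tested.

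**Figure D4:**
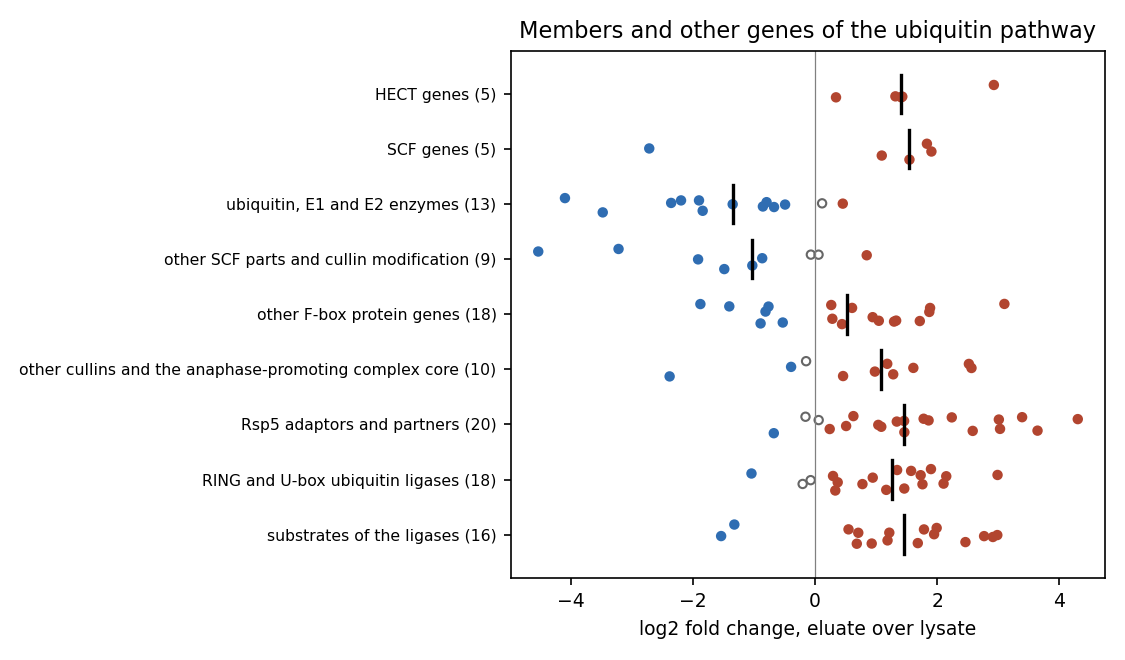
log2 fold change of eluate over lysate for the HECT and SCF genes and 7 lists of the ubiquitin pathway, with a point for each gene (red higher, blue lower, open not past the threshold) and a black bar at the median. Medians run from -1.35 for ubiquitin and its activating (E1) and conjugating (E2) enzymes to 1.55 for the SCF genes.

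mRNAs of known substrates were mostly higher as well. Of 16 substrate genes, 14 were higher and 2 lower, with a median of 1.45, and 13 lay above the median of their length class. For the Cdc4 receptor, SIC1 rose by 0.68, as did CDC6, FAR1 and TEC1 by 0.71, 0.93 and 2.98, all 3 named after their values were seen and CDC6 overlapping YJL195C on the opposite strand, while GCN4, a regulator of amino acid synthesis, fell by 1.54. For Grr1, the G1 cyclin genes CLN1 and CLN2 rose by 1.19 and 1.99, and MTH1, a repressor of hexose transporter genes, rose by 1.78. MET4, the substrate of Met30, had 580 and 588 CPM in the eluates and 108 and 104 CPM in the lysates and rose by 2.46 (standard error 0.102), while MET30 rose by 1.91. SPT23 and MGA2, the membrane-bound regulators processed through Rsp5, rose by 2.91 and 1.95. YRA1, the substrate of Tom1 named above, had 287 and 352 CPM in the eluates and 847 and 750.3 CPM in the lysates. It fell by 1.32, against the rise of 2.93 in TOM1. YRA1 has 681 coding bases and was at -0.37 from the median of its length class. TOM1 has 9807 coding bases and was 1.37 above that of its own wide class, but only 0.38 above the loess trend on coding length. Of these pairs, ligase and substrate mRNAs went the same way for Grr1, Met30 and Rsp5, and for CDC4 with SIC1, CDC6, FAR1 and TEC1. They went opposite ways for TOM1 with YRA1 and CDC4 with GCN4. As 9 of 10 ligase genes and 14 of 16 substrate genes were higher, most pairings would go the same way whatever the pair. A link within the pairs was not tested.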

How the data were processed

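RNA was sequenced from 2 biotin eluates and 2 total lysates, which the paper calls biological replicates. The authors deposited raw counts for each open reading frame. The submitters' processing notes name sacCer3, Subread 2.0.3 (featureCounts) and STAR 2.7.9a, and strand and multi-mapping options are not stated there or in the paper. The deposited DESeq2 comparison of eluate over lysate (fold changes and p-values) was not used. Coding lengths and coordinates are those of the count table, and symbols came from RefSeq (assembly R64) for 6008 of 6692 identifiers.

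The test was that of edgeR 4.0.16 under R 4.3.3 (filterByExpr, TMM, glmQLFit, glmQLFTest, and glmTreat at a log2 fold change of 1) with fraction as the only term and Benjamini-Hochberg adjustment over 6191 genes at 0.05. Standard errors were derived from each fold change and its F statistic. The fit was also run on simulated counts in which few genes changed and all genes shared a common spread. That run did not check the scaling for data in which 89% of genes passed. Alternatives covered the scaling, the filter, DESeq2 1.42.0, limma-voom (limma 3.58.1), a replicate block, leaving out each library, and coding length. The genes and lists were chosen with earlier results of these data known. Named were the ligase genes, list genes picked by role, the only gene of a list in a direction, and some of the neighbouring reading frames. HRT3, ELA1, MOT2, ECM21, CDC6, FAR1 and TEC1 were named after their values were seen. Sequences were not analysed here.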

Additional observations from a re-analysis of the deposited data

How the results depend on the processing

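Each of the 10 ligase genes kept its direction under RLE factors, library totals alone, no filter, at least 10 CPM in 2 libraries, DESeq2, limma-voom, the replicate block and with each library left out. The number called higher was 9 under these settings but library totals alone, where it was 8, since HUL5 did not pass. Library totals alone moved the median of all genes to -0.19 from -0.01. With the loess trend on coding length taken away, the sign turned for UFD4 (-0.80), HUL4 (-0.023), HUL5 (-1.12) and CDC4 (-0.094), while GRR1 was at 0.01, RSP5 at 0.17, CDC53 at 0.27, TOM1 at 0.38, MET30 at 1.13 and SKP1 at -1.35, values that carry no test. With 10 length classes, 5 genes in place of 3 lay above their class median. Among the lists, the Rsp5 adaptors had 2 genes lower with library totals alone and the RING and U-box ligases 3, and the latter had 2 with no filter and with limma-voom. With each library left out, genes lower numbered 1 to 2 in each of these lists and in the list of other cullins. With the replicate block, 2730 of all genes were higher and 2769 lower, against 2737 and 2772, and no ligase gene changed its call. The labels give the libraries a number but no shared culture. Across genes, deviations of same-numbered libraries had a correlation of -0.043, and the numbers were not taken as pairs. HUL4, with 213 counts in lysate 2, had the lowest depth.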
